A study of Mus musculus with 120 samples.

Results

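The livers described here came from male mice of CC003, a strain of the Collaborative Cross, which is a panel of recombinant inbred mouse strains bred from several founder strains. They were chosen by their labels alone, as the 3 male CC003 libraries on a high-fat, high-sucrose (HF/HS) diet and the 3 male CC003 libraries on a control diet, which makes 6 of the 120 liver libraries of a study of 10 strains, both sexes and both diets with 3 libraries in each of its 40 groups. HF/HS males had eaten for 12 weeks a diet with 42% of its energy as milkfat rich in palmitic acid, 0.2% cholesterol and over 30% sucrose. Control males had eaten a low-fat diet of matched ingredients with less sucrose for the same 12 weeks. Neither group carried a transgene or a drug treatment by its labels. The age of the mice and how many mice gave rise to each library are not given in the sources used here, so p-values measure the spread between these libraries, and each group stands for 1 inbred strain.

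Hepatocytes make cholesterol from acetyl-CoA and also take it up from lipoproteins. SREBP2, a membrane-bound transcription factor encoded by Srebf2, is carried by SCAP to the Golgi and cut free when membranes hold little sterol, and it then switches on the enzymes of cholesterol synthesis and genes of sterol uptake, and INSIG proteins hold it back when sterol is plentiful. SREBP1, encoded by Srebf1, drives fatty acid synthesis in response to insulin. PPARα, a nuclear receptor activated by fatty acids, switches on genes of fatty acid uptake, peroxisomal and mitochondrial oxidation and ω-hydroxylation.

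Promoters of the sterol genes are shown first because the largest group of changed genes belonged to that pathway. The letters CACCCCA, which stand within the classical sterol regulatory element, were searched on both strands from 250 bases before to 50 bases after each gene start in RefSeq's GRCm38.p6 table, alongside CACGTG, an E-box, whose letters do not overlap with the first. The first stood in 7.62% and the E-box in 7.15% of all 32851 promoters of the table. Of the 20 tested genes of cholesterol synthesis 15 were matched, with 18 promoters, of which 2 held CACCCCA (11.1%) and 3 held CACGTG (16.7%). Of the 9 tested genes of sterol regulation and uptake 5 were matched, with 8 promoters, of which 1 held CACCCCA (12.5%) and 3 held CACGTG (37.5%). Those with CACGTG were the promoter of Insig1 and overlapping promoters of Scap, so Scap counts more than once. Among 28 promoters of 26 genes of PPARα and fatty acid oxidation, 0 held CACCCCA and 3 held CACGTG (10.7%). The 250 bases before the start of the 3 sterol genes with a match are printed 5′ to 3′ on the gene's own strand with CACCCCA in capitals. They lie at chr17:12960726-12960975 on the minus strand for Acat2, chr15:82147019-82147268 on the plus strand for Srebf2 and chr13:119690101-119690350 on the plus strand for Hmgcs1, and the match begins 181, 161 and 136 bases before the start of Acat2, Srebf2 and Hmgcs1 in that order.
Acat2: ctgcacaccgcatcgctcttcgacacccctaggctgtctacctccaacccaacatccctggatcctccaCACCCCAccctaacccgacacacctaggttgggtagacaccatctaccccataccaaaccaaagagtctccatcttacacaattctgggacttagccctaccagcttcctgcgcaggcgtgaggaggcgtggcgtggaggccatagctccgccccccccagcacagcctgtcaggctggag
Srebf2: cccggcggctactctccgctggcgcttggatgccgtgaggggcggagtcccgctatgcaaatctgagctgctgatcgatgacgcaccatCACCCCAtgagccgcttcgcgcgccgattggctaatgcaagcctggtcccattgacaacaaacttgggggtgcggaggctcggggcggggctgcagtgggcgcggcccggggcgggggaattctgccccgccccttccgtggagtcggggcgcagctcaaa
Hmgcs1: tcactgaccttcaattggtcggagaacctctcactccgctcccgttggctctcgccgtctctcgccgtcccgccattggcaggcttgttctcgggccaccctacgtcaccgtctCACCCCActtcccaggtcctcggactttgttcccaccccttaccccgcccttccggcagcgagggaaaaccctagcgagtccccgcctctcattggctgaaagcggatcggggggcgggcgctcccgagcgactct
All 3 genes had lower values in every HF/HS library than in any control library, and none of the 3 passed the test given below. Promoters of Sqle and Fdft1 were not examined here.

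Levels are the authors' FPKM (fragments scaled to transcript length and library size), which they had rescaled so that the 75th percentile of each library lay near 10, between 9.994 and 9.999 in these 6, and they are called units below. Totals ran from 3946000 to 4630000 units in the HF/HS libraries and from 3863000 to 4571000 units in the control libraries, against 983700 to 1987000 units in the 54 male libraries of the 9 other strains, so CC003 libraries differ in kind from the others and diet was compared within strain. The read depth is unknown. Small nucleolar RNAs took 21.6% to 23.5% of the units in HF/HS and 23.6% to 24.8% in control libraries, and the ranges do not overlap. Scaled to totals without RNAs that lack a poly(A) tail, an alternative chosen after seeing the data, 35 of the 36 genes called below were still called. Of 11818 genes tested, 323 had a value of 0 in at least 1 of the 6 libraries, and a 0 beside high values may be a failed estimate. Pearson's r between libraries, over the log2 values of the tested genes, was 0.941 to 0.953 within a diet and 0.935 to 0.953 between diets. Alb, the hepatocyte's albumin gene, stood at 29070 to 40820 units in HF/HS and 40120 to 45590 units in control libraries. The Y-linked genes Ddx3y, Uty, Kdm5d and Eif2s3y were present in all 6 libraries, with Ddx3y at 37.7 to 41.6 units, and Xist was at 0.436 to 1.56 units, against at least 28.5 units in each of the study's 60 female libraries.

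The question was which liver genes differed between the diets in CC003 males. Of 20 genes of cholesterol synthesis 12 fell under HF/HS, led by Sqle, and 3 genes of fatty acid uptake and binding and 2 of fatty acid oxidation were among those that rose. By limma on log2(value + 1) with Benjamini-Hochberg adjustment, 36 of the 11818 genes (0.305%) passed an adjusted p of 0.05. Of these, 12 rose (0.102%) and 24 fell (0.203%). A further measure of the background is that 1267 genes (10.7%) had an unadjusted p under 0.05, and that all 3 HF/HS libraries lay above all 3 control libraries for 1058 genes (8.95%) and below them for 933 genes (7.89%). The median difference over all genes tested was 0.00737 on the log2 scale. Log2 differences are HF/HS minus control on the log2(value + 1) scale, which understates the change of low genes, and linear folds are ratios of group means. In liver tissue, fewer cells of a type and less RNA per cell cannot be told apart. The count was 17 without HF/HS library 1 (13 of them among the 36), 16 without control library 1 (13 of them) and 19 without control library 2 (14 of them). Of the 36, 10 passed whichever of the 6 libraries was left out, and 5 passed in none of those 6 fits. Sharing the spread over all 60 male libraries gave 828 genes (6.86%), and a prior without a mean trend gave 8.

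**Figure D1:**
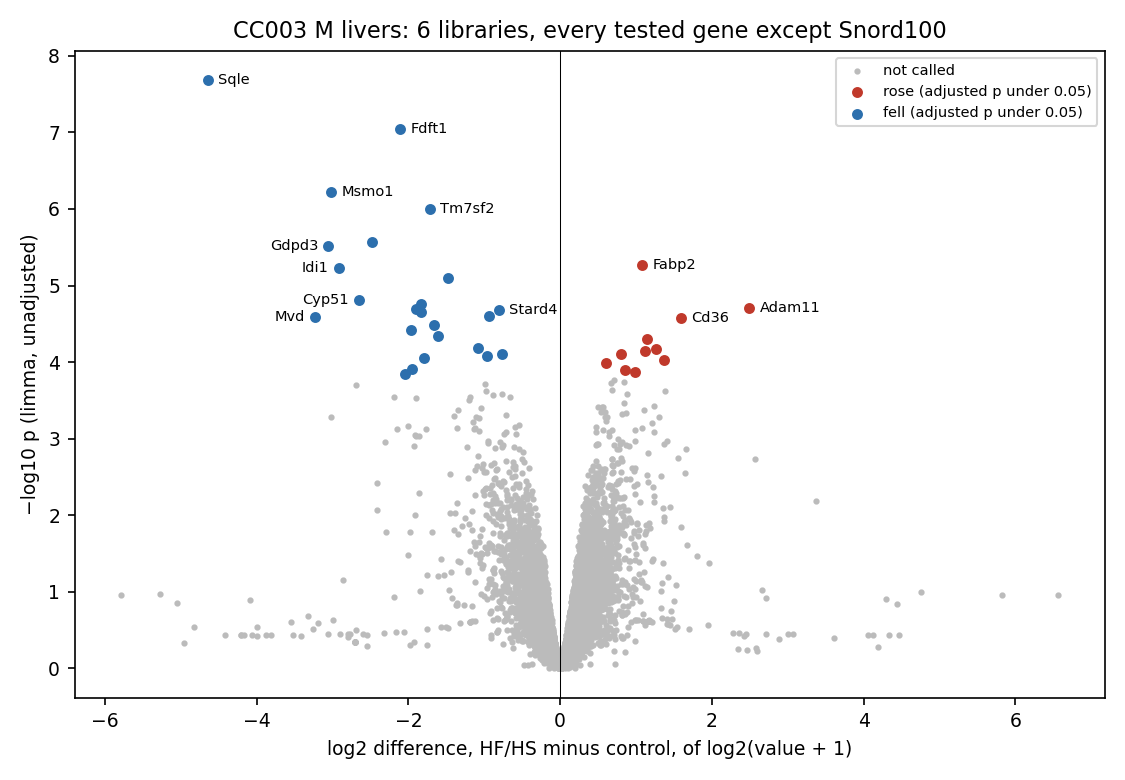
Each point is 1 tested gene, with the log2 difference (HF/HS minus control) on the horizontal axis and −log10 of limma's unadjusted p on the vertical axis. Coloured points are genes called at an adjusted p under 0.05, and Sqle lies farthest to the left at −4.64. Snord100, at 12.96, is left out of the plot.

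All 20 enzymes of the cholesterol synthesis list were lower in every HF/HS library than in any control library, against a background of 7.89% for genes lying lower, and 12 of the 20 fell by the test, against 0.203% of all genes. The median log2 difference of the 20 was −2.04. Their summed level was 951, 1142 and 789 units in the HF/HS livers, against 3780, 2604 and 2564 units in the control livers. HF/HS library 3 was the lowest of the 6 in this sum and control library 1 the highest. With a prior without a mean trend 6 of the 20 passed, with the spread shared over the 60 male libraries 19, and without HF/HS library 1 the count was 7. All 20 differences were negative in each of the 18 alternatives run.

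The early steps make mevalonate and turn it into isoprenoid units. Acat2, which joins acetyl-CoA units into acetoacetyl-CoA, was at 74.3, 90.0 and 64.3 units in HF/HS livers, against 182, 145 and 131 units in control livers, with a log2 difference of −0.99 and an adjusted p of 0.0570. Hmgcs1, a synthase of the mevalonate branch, was at 49.7, 56.7 and 21.6 units in HF/HS livers, against 362, 170 and 161 units in control livers. Its log2 difference was −2.42 with a standard error of 0.49, and the spread within both groups left its adjusted p at 0.214. Mvk, mevalonate kinase, fell to 2.73, 6.63 and 4.21 units in HF/HS livers, against 17.7, 14.7 and 20 units in control livers (adjusted p = 0.0352). Pmvk, the next kinase, was at 20.8, 33.8 and 18.5 units in HF/HS livers, against 130, 84.6 and 68.0 units in control livers, and did not pass (adjusted p = 0.0675). Mvd, mevalonate diphosphate decarboxylase, fell to 5.24, 6.05 and 1.66 units in HF/HS livers, against 49.9, 42.4 and 42.3 units in control livers. That is a 10.4-fold lower mean and a log2 difference of −3.23 (adjusted p = 0.0166). Idi1, which isomerises isopentenyl diphosphate, fell to 30.0, 36.0 and 23.4 units in HF/HS livers, against 335, 194 and 181 units in control livers (7.94-fold lower, adjusted p = 0.00779). Fdps, which makes farnesyl diphosphate, was at 69.3, 97.0 and 39.3 units in HF/HS livers, against 558, 402 and 332 units in control livers, and at an adjusted p of 0.0570 lay just outside the threshold.

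The committed steps to squalene and sterol rings held the 2 lowest adjusted p-values of the pathway. Fdft1, squalene synthase (chr14:63145151-63179578), was nearly level within the HF/HS group, at 12.1, 12.1 and 12.3 units, against 65.9, 50.6 and 52.0 units in control livers. It fell by 2.11 ± 0.13 on the log2 scale, a 4.62-fold lower mean (adjusted p = 0.000361). Sqle, squalene epoxidase (chr15:59315092-59331193), puts the first oxygen on the sterol precursor and is a control point of the pathway. Sqle was at 2.56, 3.06 and 1.54 units in HF/HS livers, against 110, 69.6 and 72.4 units in control livers. Its mean was 2.39 ± 0.77 units in HF/HS livers and 83.9 ± 22.4 units in control livers (SD, n = 3 libraries each), so it was 35.1-fold lower, and the log2 difference was −4.64 ± 0.23 (adjusted p = 0.000123). Lss, which closes the ring to lanosterol, fell to 6.66, 5.76 and 4.98 units in HF/HS livers, against 37.7, 23.9 and 18.03 units in control livers (adjusted p = 0.0216).

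The later enzymes trim lanosterol into cholesterol. Cyp51, lanosterol demethylase, fell to 15.5, 19.2 and 9.23 units in HF/HS livers, against 121, 77.3 and 88.2 units in control livers (6.51-fold lower, adjusted p = 0.0165). Tm7sf2, a sterol C14 reductase, fell to 38.5, 54.02 and 43.6 units in HF/HS livers, against 166, 139 and 147 units in control livers (3.32-fold lower, adjusted p = 0.00235). Msmo1, the C4 methylsterol oxidase, fell to 13.3, 17.9 and 13.1 units in HF/HS livers, against 171, 94.2 and 123 units in control livers (8.76-fold lower, adjusted p = 0.00177). Hsd17b7, a 3-ketosteroid reductase of the same branch, fell to 13.5, 14.4 and 12.9 units in HF/HS livers, against 49.9, 36.0 and 34.4 units in control livers (adjusted p = 0.00950). Its partner Nsdhl was at 20.4, 28.1 and 12.3 units in HF/HS livers, against 125, 89.0 and 68.4 units in control livers (adjusted p = 0.0675). Dhcr7, the enzyme of the last reduction in one branch, fell to 17.7, 24.1 and 16.5 units in HF/HS livers, against 96.3, 62.2 and 60.4 units in control livers (adjusted p = 0.0165). Sc5d, a sterol desaturase, had a log2 difference of −1.20 (adjusted p = 0.0721), and Ebp, a sterol isomerase, of −0.50 (adjusted p = 0.165). Neither passed, and control levels reached 556 units for Sc5d. Sqle, Fdft1, Msmo1, Tm7sf2 and Idi1 passed the threshold in each of the 18 alternatives run.

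**Figure D2:**
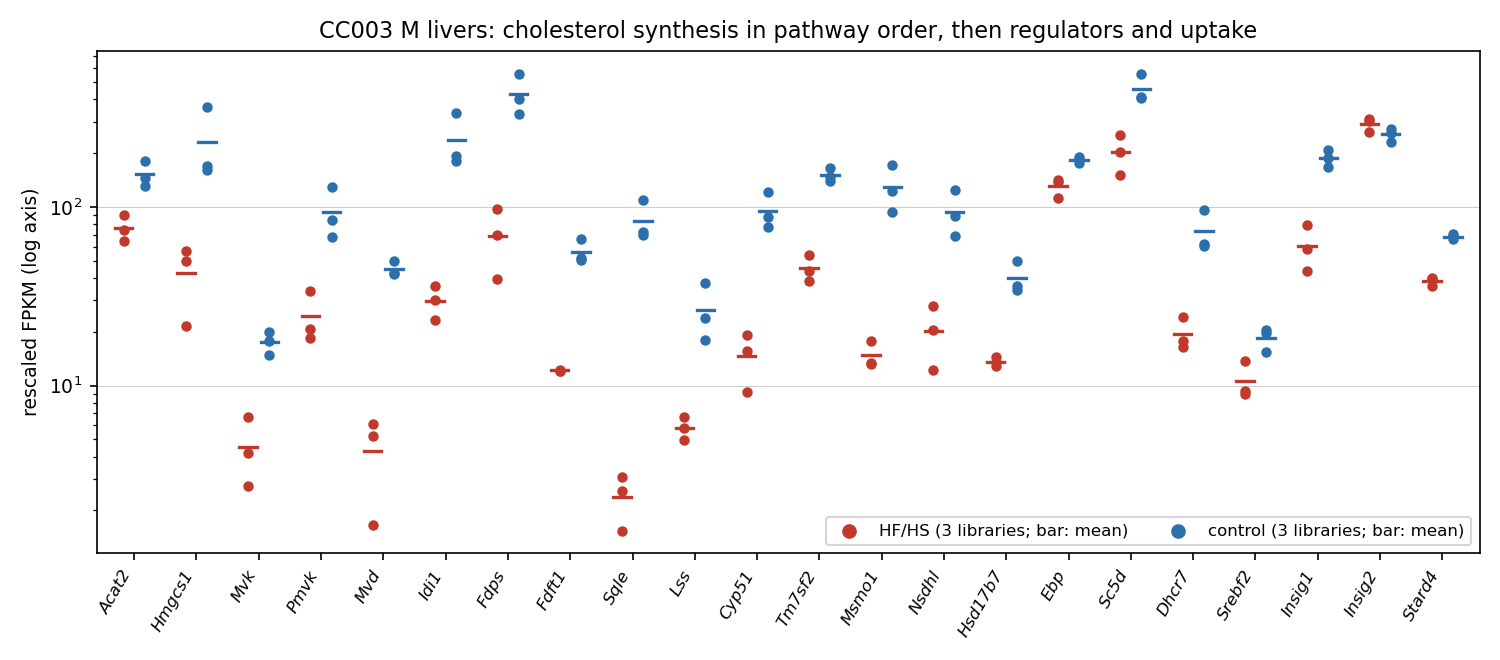
Levels in rescaled FPKM (log axis) of genes of cholesterol synthesis, sterol uptake and its regulation, with HF/HS left of control, 1 point per library and a bar at the mean of 3. The 3 HF/HS points of Sqle lie between 1.54 and 3.06 and its 3 control points between 69.6 and 110.

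Regulators and uptake genes changed by less. Of the 9 tested genes of that list, 4 fell, and 7 had lower values in every HF/HS library than in any control library, against 0.203% and 7.89% of all genes. The count of 4 was 1 without control library 1 and 2 without control library 2 or HF/HS library 2. Insig1, the sterol-regulated anchor of the SREBP2-SCAP complex, fell to 79.6, 58.0 and 43.6 units in HF/HS livers, against 169, 187 and 208 units in control livers (3.11-fold lower, adjusted p = 0.0194). Stard4, a cytosolic sterol carrier, fell to 40.1, 39.5 and 36.1 units in HF/HS livers, against 70.2, 68.4 and 65.9 units in control livers (1.77-fold lower, adjusted p = 0.0165). Srebf2 was at 13.7, 9.29 and 8.93 units in HF/HS livers, against 20.6, 15.3 and 19.6 units in control livers (adjusted p = 0.208), and Scap had a log2 difference of −0.49 (adjusted p = 0.246). Insig2, the second INSIG gene, was at 264 to 312 units in HF/HS and 232 to 275 units in control livers, and these ranges overlap. Mylip, a ubiquitin ligase regulated by sterols, overlapped as well, with a log2 difference of 0.06. Npc1l1, a sterol transporter, was too low to be tested.

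Sterol efflux and bile acid genes had no called member. Among 13 genes of sterol efflux and of the oxysterol receptor LXR, 5 were higher (38.5%) and 1 was lower (7.69%) in every HF/HS library. The shares over all genes were 8.95% and 7.89%. The median log2 difference of the 13 was 0.06. Abcg5, one of the pair of proteins that pump cholesterol into bile, was at 96.0, 91.3 and 158 units in HF/HS livers, against 51.2, 52.0 and 50.8 units in control livers (log2 difference 1.11, adjusted p = 0.0839). Its partner Abcg8 was at 56.1, 51.3 and 96.8 units in HF/HS livers, against 40.1, 35.8 and 32.7 units in control livers (adjusted p = 0.246). HF/HS library 3 was the highest for both. Pltp, the phospholipid transfer protein, was lower, at 24.4, 22.1 and 23.4 units in HF/HS livers, against 87.2, 61.5 and 41.6 units in control livers (adjusted p = 0.0834). Of 21 bile acid genes, 4 were higher (19%) and 2 lower (9.52%) in every HF/HS library, with a median of 0.02. Cyp8b1, the sterol 12α-hydroxylase, was at 146, 107 and 111 units in HF/HS livers, against 167, 152 and 165 units in control livers (adjusted p = 0.304). Among 18 lipoprotein genes 0 were called by limma, and Apoa4, an apolipoprotein of triglyceride-rich particles, was at 2079, 1808 and 1147 units in HF/HS livers, against 1066, 1102 and 830 units in control livers (log2 difference 0.72).

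Fatty acid uptake and binding genes held 3 of the 12 genes that rose, out of 12 tested members of that list, against 0.102% of all genes. Without HF/HS library 1, HF/HS library 2, control library 1 or control library 2 the count was 1, and 2 without HF/HS library 3. Cd36, a fatty acid translocase at chr5:17781690-17888959, was at 110, 101 and 73.5 units in HF/HS livers, against 25.6, 28.6 and 38.4 units in control livers. It rose by 1.59 ± 0.19 on the log2 scale, a 3.08-fold higher mean (adjusted p = 0.0166). Fabp2, a fatty acid binding protein best known from the intestine (chr3:122895072-122899506), was at 206, 258 and 217 units in HF/HS livers, against 102, 109 and 107 units in control livers. It rose 2.14-fold (log2 difference 1.09 ± 0.11, adjusted p = 0.00779) and had the lowest p of the genes that rose other than Snord100. Slc27a2, a very-long-chain acyl-CoA synthetase and transporter, rose to 1151, 1061 and 1165 units in HF/HS livers, against 565, 664 and 714 units in control livers (1.74-fold higher, adjusted p = 0.0332). Fabp1, the main liver fatty acid binding protein, overlapped between diets, at 15420 to 21100 units in HF/HS and 12100 to 16820 units in control livers. Fabp5, the epidermal-type binding protein, lay in the other direction, at 28.4, 69.2 and 83.0 units in HF/HS livers, against 451, 328 and 138 units in control livers, with a spread that left its adjusted p at 0.336.

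Among the 35 genes of PPARα and fatty acid oxidation, 2 rose, 1 fell, and 25 were higher in every HF/HS library, against 0.102%, 0.203% and 8.95% of all genes. Without HF/HS library 1, HF/HS library 2, control library 1 or control library 2, 0 rose by limma, and without HF/HS library 3, 5 rose, while 31 to 33 of the 35 differences were positive in each of these fits. The median log2 difference was 0.37, and the summed level was 8132, 8083 and 7058 units in HF/HS livers, against 5029, 5517 and 5668 units in control livers, without overlap. Acaa1b, a peroxisomal thiolase, rose to 1137, 1108 and 860 units in HF/HS livers, against 388, 537 and 503 units in control livers (2.17-fold higher, adjusted p = 0.0330). Acot2, a mitochondrial acyl-CoA thioesterase, rose to 7.18, 5.37 and 6.35 units in HF/HS livers, against 1.52, 1.77 and 2.16 units in control livers (3.47-fold higher, adjusted p = 0.0360). Both have close copies, Acaa1a and Acot1, and how the authors' quantification divided reads between copies is not given in the sources used here. Acaa1a was at 183, 182 and 143 units in HF/HS livers, against 81.8, 98.8 and 102 units in control livers (adjusted p = 0.0560). Ehhadh, the peroxisomal bifunctional enzyme, was at 453, 442 and 331 units in HF/HS livers, against 200, 252 and 229 units in control livers (adjusted p = 0.0756). Acadm, the medium-chain acyl-CoA dehydrogenase of mitochondria, was at 235, 209 and 185 units in HF/HS livers, against 126, 139 and 143 units in control livers (adjusted p = 0.0869). A smaller non-overlapping difference stood at Cpt1a, which admits fatty acids to mitochondria (log2 difference 0.36), and did not pass. Ppara itself was at 67.4, 66.9 and 66.4 units in HF/HS livers, against 62.0, 62.0 and 64.2 units in control livers, a log2 difference of 0.09.

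The Cyp4a genes encode ω-hydroxylases, which oxidise the far end of fatty acids. Cyp4a10 was at 134, 75.8 and 25.5 units in HF/HS livers, against 2.64, 5.24 and 9.79 units in control livers, and its log2 difference of 3.38 had a standard error of 0.75 (adjusted p = 0.259). Cyp4a14 was at 62.3, 21.9 and 1.14 units in HF/HS livers, against 0.222, 1.96 and 2.01 units in control livers, so the groups overlapped through HF/HS library 3. Cyp4a32 rose to 37.1, 31.0 and 34.9 units in HF/HS livers, against 10.7, 13.7 and 17.5 units in control livers (2.46-fold higher, adjusted p = 0.0323), and it too belongs to a cluster of near-identical genes. Of the 6 fits that leave out 1 library Cyp4a32 passed in 1. With the spread shared by the 12 CC003 libraries it did not pass (adjusted p = 0.458). In CC003 females it was at 15.9, 26.9 and 45.5 units on HF/HS and 16.1, 33.05 and 81.55 units on control. Vnn1, a pantetheinase and known PPARα target, was at 48.8, 46.9 and 13.9 units in HF/HS livers, against 6.43, 3.19 and 4.42 units in control livers (adjusted p = 0.164). HF/HS library 3 was the lowest of the 3 for Cyp4a10, Cyp4a14 and Vnn1. Pdk4, an inhibitor of pyruvate dehydrogenase that is also a PPARα target, was the member that fell, to 2.75, 3.20 and 1.62 units in HF/HS livers, against 9.79, 9.56 and 9.22 units in control livers (3.78-fold lower, adjusted p = 0.0242). Fgf21, a hormone under PPARα control, overlapped between diets.

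**Figure D3:**
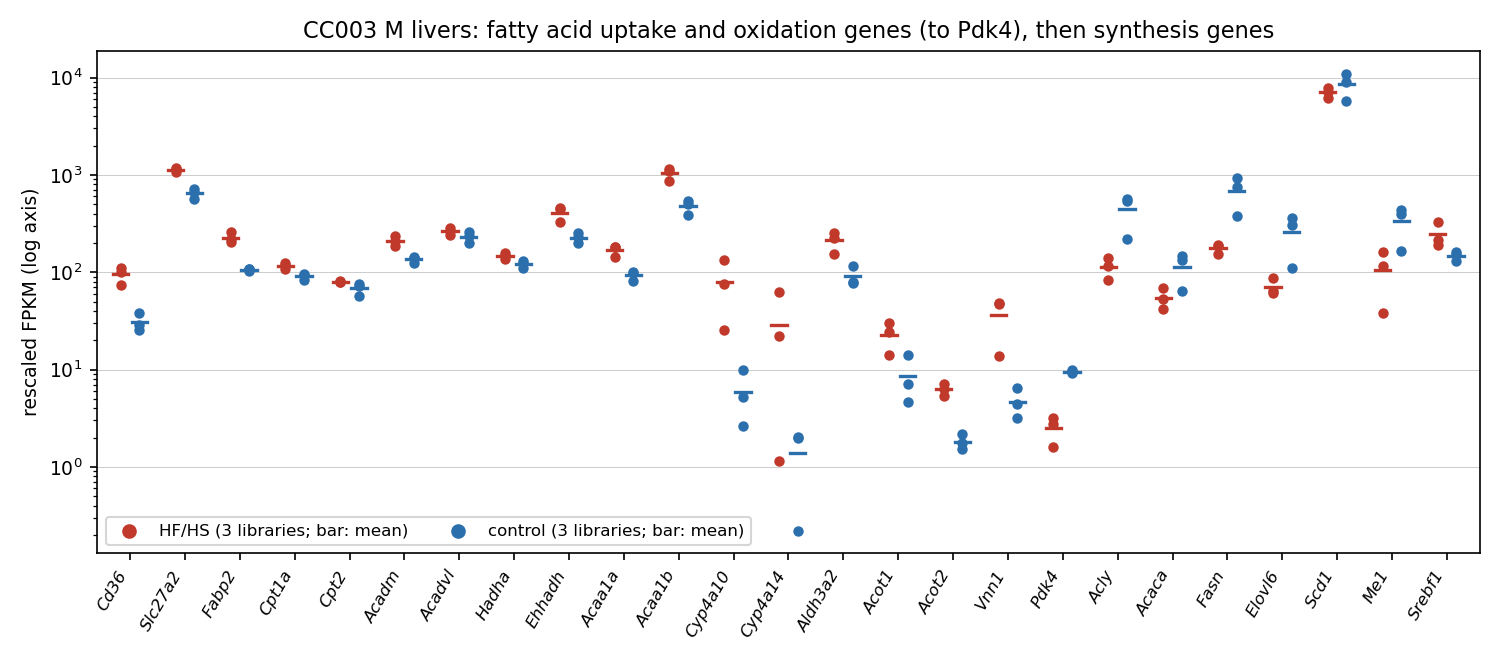
Levels in rescaled FPKM (log axis) of genes of fatty acid uptake, oxidation and synthesis, with HF/HS left of control, 1 point per library and a bar at the mean of 3. Fabp2 and Cd36 separate the diets, with HF/HS points of Fabp2 at 206 to 258 and control points at 102 to 109, and control library 3 lies below the other 2 for Fasn and Acly.

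Most fatty acid synthesis genes had lower values in the HF/HS males, but by limma 0 of the 20 passed the adjusted threshold. At an unadjusted p under 0.05, 11 of the 20 were lower and 1 was higher, against 560 and 707 of all 11818 genes. In every HF/HS library 10 were lower and 1 was higher, against 7.89% and 8.95% of all genes. The median log2 difference was −0.61. Fasn, fatty acid synthase, was at 190, 185 and 153 units in HF/HS livers, against 933, 743 and 377 units in control livers (log2 difference −1.86, adjusted p = 0.110). Acly, which makes cytosolic acetyl-CoA from citrate, was at 116, 141 and 82.9 units in HF/HS livers, against 567, 540 and 219 units in control livers (adjusted p = 0.237). Acss2, which makes acetyl-CoA from acetate, was at 49.1, 103 and 52.4 units in HF/HS livers, against 407, 280 and 210 units in control livers (adjusted p = 0.104). Control library 3 was the lowest control for all 3 genes, and also for Elovl6, Pnpla3 and Me1. Leaving it out brought 7 of the 20 past the threshold, all lower. Scd1, the main desaturase, overlapped, at 7188, 7900 and 6161 units in HF/HS livers, against 10980, 8918 and 5727 units in control livers. Srebf1, the regulator of these genes, lay in the other direction, at 214, 190 and 332 units in HF/HS livers, against 160, 131 and 154 units in control livers (adjusted p = 0.281). Among 10 genes of triglyceride synthesis 0 were called, and 2 were lower (20%) in every HF/HS library, against 7.89% of all genes. One is Gpam, which adds the first acyl chain to glycerol phosphate, at 81.4, 86.9 and 69.6 units in HF/HS livers, against 217, 187 and 123 units in control livers (adjusted p = 0.0869).

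Of 17 lipid droplet and storage genes, 1 rose and 7 were higher in every HF/HS library, against 0.102% and 8.95% of all genes, with a median log2 difference of 0.32. The one that rose is Hsd17b11, a dehydrogenase found on lipid droplets, at 183, 173 and 182 units in HF/HS livers, against 86.1, 93.8 and 119 units in control livers (1.80-fold higher, adjusted p = 0.0439), and of the 6 fits that leave out 1 library it passed in 1, the one without control library 3. G0s2, an inhibitor of the triglyceride lipase ATGL, was at 258, 471 and 415 units in HF/HS livers, against 121, 117 and 189 units in control livers (adjusted p = 0.123). Fitm1, which helps droplets form, was at 63.7, 74.5 and 34.8 units in HF/HS livers, against 22.9, 29.3 and 20.9 units in control livers (adjusted p = 0.213). The droplet coat genes Plin2 and Cidec overlapped between diets.

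The other called genes belong to several pathways. Ddc, Pfkfb1, Slco2a1, Mmab and Ccdc69, given in this and the next paragraphs, each lost the call whichever library was left out. Tcf24, a basic helix-loop-helix factor, fell to 2.19, 1.19 and 1.49 units in HF/HS livers, against 6.96, 9.88 and 8.20 units in control livers (adjusted p = 0.0165). Pfkfb1, the liver enzyme that sets the level of fructose 2,6-bisphosphate and so the pace of glycolysis, fell to 20.5, 19.9 and 21.8 units in HF/HS livers, against 37.9, 33.1 and 36.7 units in control livers (adjusted p = 0.0332). Acot11, an acyl-CoA thioesterase, rose to 18.97, 15.1 and 18.9 units in HF/HS livers, against 6.53, 7.51 and 8.23 units in control livers (2.38-fold higher, adjusted p = 0.0254). Adam11, a member of the ADAM family without protease activity, rose to 16.7, 12.9 and 30.2 units in HF/HS livers, against 3.16, 2.26 and 2.14 units in control livers (log2 difference 2.50 ± 0.29, adjusted p = 0.0165). Its 7.90-fold higher mean was the largest linear fold among the genes that rose with no library at 0. Ddc, the aromatic amino acid decarboxylase, rose to 86.9, 84.0 and 86.1 units in HF/HS livers, against 55.1, 54.6 and 58.0 units in control livers (1.53-fold higher, adjusted p = 0.0374).

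The remaining called genes were named after their values were seen, as were Hsd17b7 above and those listed at 0 below. Slc19a2, a thiamine transporter, fell to 32.5, 29.9 and 29.7 units in HF/HS livers, against 63.4, 52.5 and 64.4 units in control livers (adjusted p = 0.0166). Slco2a1, a prostaglandin transporter, fell to 19, 13.6 and 16.99 units in HF/HS livers, against 32.9, 33.7 and 32.0 units in control livers (adjusted p = 0.0336). Mmab, an enzyme of vitamin B12 handling, lies at chr5:114431034-114444027 beside Mvk at chr5:114444269-114460590. Mmab fell to 7.24, 8.41 and 8.72 units in HF/HS livers, against 20.6, 15.8 and 18.7 units in control livers (adjusted p = 0.0318). Gm4952 rose to 106, 135 and 133 units in HF/HS livers, against 53.5, 58.8 and 74.95 units in control livers (adjusted p = 0.0458).

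A further 4 called genes had libraries listed at 0, so no fold is given for them. Gdpd3, a lysophospholipase D, was at 0, 0.660 and 0 units in HF/HS livers, against 6.74, 9.30 and 10.9 units in control livers (adjusted p = 0.00520). In CC003 females Gdpd3 varied within a diet, at 8.03, 0.743 and 9.56 units on HF/HS and 0, 19.74 and 20.27 units on control. With the spread shared by the 12 CC003 libraries Gdpd3 did not pass in males (adjusted p = 0.393). Ccdc69 was at 0, 0.479 and 0 units in HF/HS livers, against 5.71, 3.11 and 2.79 units in control livers (adjusted p = 0.0464). Ptgds, a prostaglandin D synthase, was at 0 in all 3 HF/HS livers, against 3.13, 4.01 and 1.80 units in control livers (adjusted p = 0.0439). Snord100, a small nucleolar RNA, was at 10490, 5869 and 8202 units in HF/HS livers and listed at 0 in all 3 control livers. In CC003 females the same RNA was at 4263, 11160 and 5045 units in HF/HS and 4230, 11960 and 3478 units in control livers, and 40 of the 54 other male libraries list it at 0.

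Gene lists outside lipid metabolism had few calls, and their counts of non-overlapping members stand against 8.95% higher and 7.89% lower over all genes. Among 27 cytochrome P450 and other xenobiotic genes 0 were called and 6 were higher in every HF/HS library, with a median log2 difference of 0.42. Cyp3a11, the main drug-metabolising P450 of mouse liver, was at 2782, 1839 and 1469 units in HF/HS livers, against 607, 1198 and 504 units in control livers (adjusted p = 0.273). Of 27 glucose and insulin genes only Pfkfb1 passed, and Irs2, an insulin receptor adaptor, was at 3.76, 1.75 and 0.346 units in HF/HS livers, against 5.13, 6.13 and 6.26 units in control livers (adjusted p = 0.286). Of 22 respiratory chain genes, 9 were higher in every HF/HS library, with a median of only 0.13, and 0 passed. Of 20 genes known to be higher in male liver, 9 were higher in every HF/HS library, and Mup1, a major urinary protein with many near-identical copies, was at 16570, 17810 and 24900 units in HF/HS livers, against 9780, 12310 and 14290 units in control livers (adjusted p = 0.258). Of 28 acute phase genes, 7 were higher in every HF/HS library, among them Saa1, serum amyloid A, at 77.4, 233 and 183 units in HF/HS livers, against 44.5, 66.7 and 38.6 units in control livers (adjusted p = 0.324). Of 28 interferon genes, 2 were higher and 6 lower in every HF/HS library, with a median of −0.14. The lists of growth hormone signalling and of pericentral Wnt genes had no member whose groups did not overlap.

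**Figure D4:**
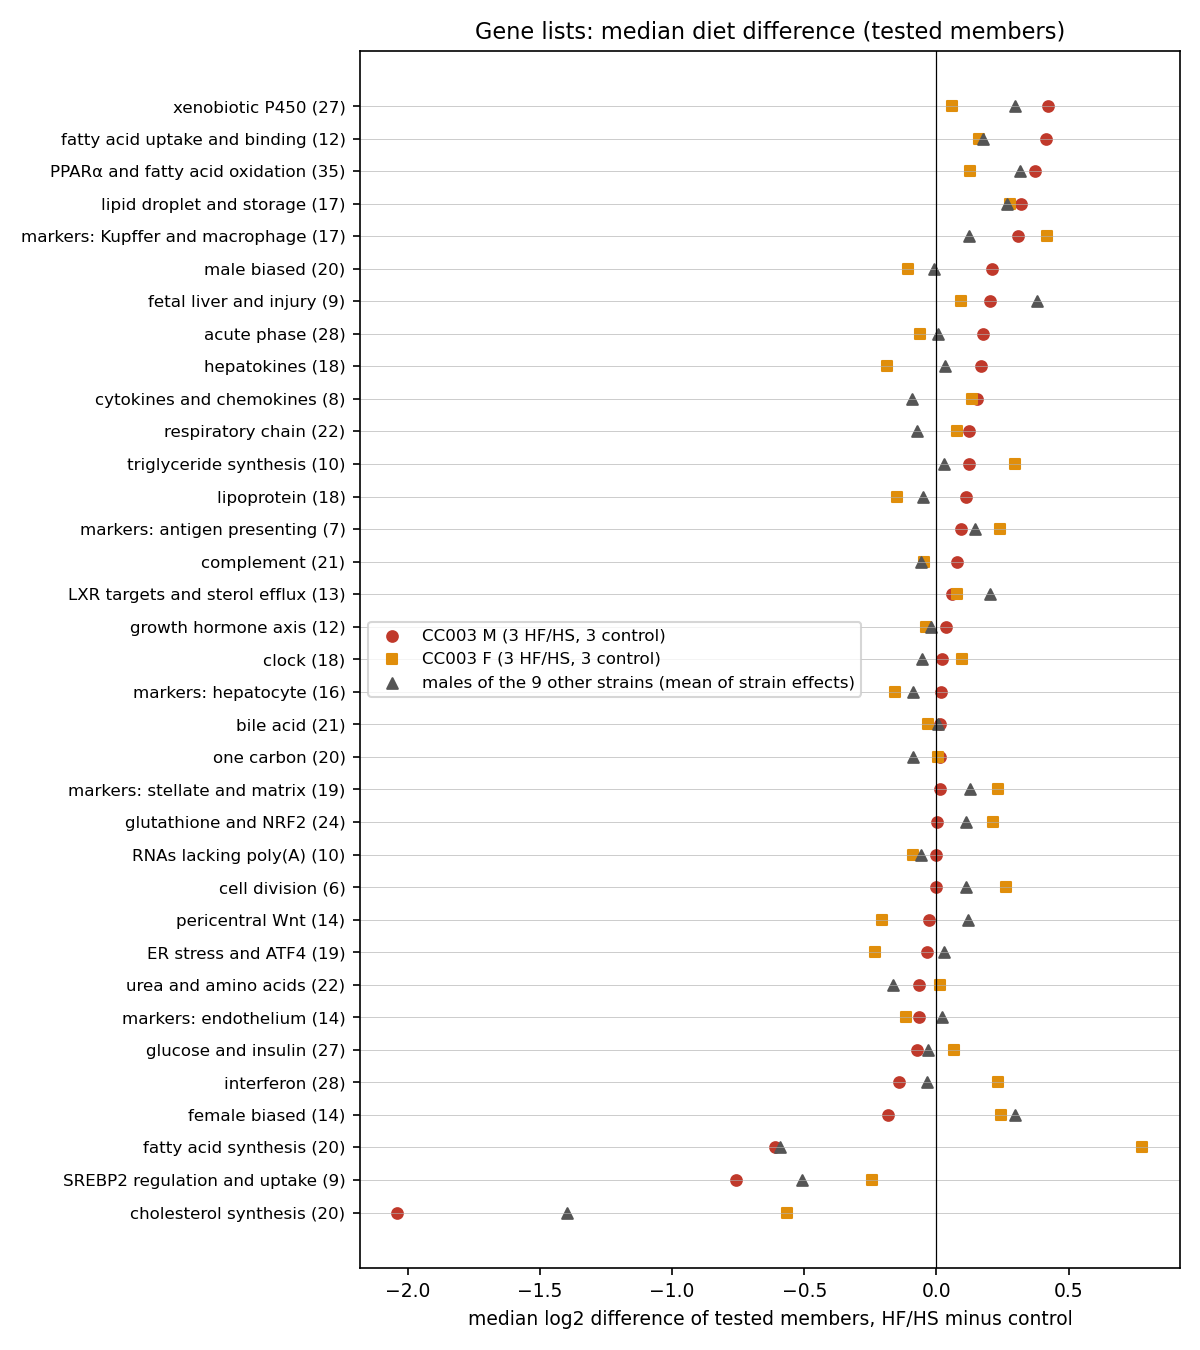
Median log2 difference (HF/HS minus control) of the tested members of each gene list with at least 6 of them, number in brackets, for CC003 M, CC003 F and the mean of the males of the 9 other strains. Cholesterol synthesis is farthest from 0 in CC003 M at −2.04, and fatty acid synthesis is at −0.61 in CC003 M and 0.78 in CC003 F.

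The summed macrophage markers were higher in the HF/HS livers, and markers of most other liver cells overlapped between diets. Of 24 listed macrophage genes 17 were tested, 0 were called and 4 were higher (23.5%) in every HF/HS library, against 8.95% of all genes. Of the 17 log2 differences, 14 were positive and 3 negative, the lowest at −1.06. The summed level of the 17 genes was 497, 463 and 588 units in HF/HS livers, against 389, 441 and 386 units in control livers, without overlap. Vsig4, a receptor of resident Kupffer cells, was at 24.9, 20.9 and 38.4 units in HF/HS livers, against 18.99, 17.9 and 12.4 units in control livers (adjusted p = 0.341), and Mpeg1, a macrophage perforin, had a log2 difference of 0.67 (adjusted p = 0.214). The part of these cells in the results above was not tested. Markers of stellate cells, endothelium and antigen-presenting cells had at most 2 members each whose groups did not overlap. For endothelium 2 of 14 were lower (14.3%), against 7.89% of all genes. For stellate cells 1 of 19 was higher and 1 lower (5.26% each). The bile duct genes Krt7, Krt19, Epcam and Cftr were too low to be tested. Pancreas genes stood in 1 library: Prss2 was at 23.9 units, Pnlip at 19.4, Cela2a at 18.1 and Cpa1 at 11.4 in HF/HS library 1, and all 4 were listed at 0 in the other 5. Without that library Sqle still passed, and all 20 cholesterol synthesis differences stayed negative.

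The next question was whether the diet difference in CC003 males differed from that in CC003 females. In the 12 CC003 libraries, 43 of 11915 genes (0.361%) passed in females, 26 higher (0.218%) and 17 lower (0.143%), and 8 of the 36 genes called in males were also called in females in the same direction. The test of the male minus female difference called 2 genes (0.0168%), Sqle and Snord100, and 997 genes (8.37%) had an unadjusted p under 0.05. Sqle was at 38.6, 47.4 and 29.7 units in HF/HS females, against 129, 79.0 and 59.5 units in control females, so every HF/HS male lay below every HF/HS female, whereas control males and control females overlapped. Its male minus female difference was −3.51 ± 0.41 (adjusted p = 0.0135), and Snord100 had 12.81 (adjusted p = 0.000144), with the control males at 0. Without HF/HS library 1 the difference of Sqle was −3.55 and no longer passed (adjusted p = 0.0655), and with a pseudocount of 5 it was −2.50 and did not pass either (adjusted p = 0.0717).

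For the other cholesterol enzymes the difference between the sexes did not pass. The median log2 difference over the 20 was −2.04 in males and −0.56 in females, where 5 fell. The summed level was 789 to 1142 units in HF/HS males and 1951 to 2110 units in HF/HS females, while control sums were 2564 to 3780 units in males and 2183 to 3972 units in females. Of the 20, 16 had an unadjusted p under 0.05 for the sex difference, against 8.37% of all genes. Fdft1, for instance, was at 29.5, 28.2 and 33.3 units in HF/HS females, against 71.2, 53.2 and 52.7 units in control females, and fell in females too (adjusted p = 0.0125). Fabp2 rose in females as well, to 189, 292 and 298 units in HF/HS females, against 85.9, 109 and 89.0 units in control females (adjusted p = 0.00415). Fatty acid synthesis genes had opposite medians, −0.61 in males and 0.78 in females. By limma 0 of the 20 passed the test of the sex difference, and 18 had an unadjusted p under 0.05, against 8.37% of all genes. Fasn was at 755, 790 and 697 units in HF/HS females, against 600, 431 and 176 units in control females, and its male minus female difference was −2.92 (adjusted p = 0.242). The summed level of the 20 genes was 10830, 12300 and 9693 units in HF/HS males and 18640, 16080 and 10420 units in control males. In females it was 19080, 22630 and 20710 units on HF/HS and 15100, 11870 and 5278 units on control.

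The last question was how CC003 males compared with males of the 9 other strains on the same diets. Strain and kind of library cannot be told apart in this comparison, because CC003 libraries differ in kind from the others. The diet difference in CC003 males minus the mean of the other strains passed for 372 of 12066 genes (3.08%), 179 higher (1.48%) and 193 lower (1.6%). Their own mean diet difference passed for 2497 genes (20.7%), including all 20 cholesterol synthesis genes, which fell. Of the 36 genes called in CC003 males, 35 were tested there and 31 were also called in that mean in the same direction. Of the 24 that fell, 17 were lower in each of the 9 strains, and of the 12 that rose, 6 were higher in each. CC003 was the lowest of the 10 male strains for 11 of the 24 genes that fell, and the highest for 2 of the 12 that rose. Because the 36 were picked by their difference in CC003 males, an extreme CC003 rank is favoured, as is a difference from the other strains. Neither ranks nor agreement in sign across the 9 strains was counted over all genes. The difference from the other strains passed for 9 of the 36. Among the sterol genes these were Fdft1 (−0.88, adjusted p = 0.0281), Msmo1 (−1.15, adjusted p = 0.0495), Hsd17b7 (−0.74, adjusted p = 0.0208) and Mvd (−1.65, adjusted p = 0.0417). These are differences from a mean. Mvd was lowest in CC003, whereas Fdft1 fell slightly further in CC032, and Msmo1 and Hsd17b7 in CC019. Sqle lay at −4.64 in CC003 and between −4.28 and −1.56 in the other strains, and its difference of −1.41 did not pass (adjusted p = 0.0589), though it did with no filter (adjusted p = 0.0470) and with quantile normalization (−1.60, adjusted p = 0.0266), with a range of 0.0266 to 0.178 over the alternatives. The other 5 were Gdpd3 (−2.91), Ptgds (−2.05), Tcf24 (−1.23), Slc19a2 (−0.73) and Mmab (−0.49).

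Several genes outside the 36 also had a diet difference unlike that of the other males. Ugt2b34, a glucuronosyltransferase, was at 41.2, 73.4 and 35.2 units in HF/HS livers, against 120, 118 and 132 units in control livers of CC003 males. Its log2 diet difference minus the mean diet difference of the other strains was −1.30 (adjusted p = 1.14e-05). Tsen54, a subunit of the tRNA splicing endonuclease, was at 5.30, 6.70 and 5.49 units in HF/HS livers, against 2.85, 2.17 and 2.91 units in control livers. By the same measure it had 1.01 (adjusted p = 5.38e-06). Cib2, a calcium-binding protein, was at 3.06, 5.12 and 3.38 units in HF/HS livers, against 9.60, 8.95 and 11.1 units in control livers, and had −1.42 by that measure (adjusted p = 0.000165). For 14 of the 372, among them Alb and Mup1, most of the other male libraries were listed at 0, so those differences rest on such values. The 9 other strains are not uniform either. Small nucleolar RNAs took 0.0084% to 0.388% of the units in CC060 males, against a median of 11.56% over the 54 other male libraries, CC060 included. Without the CC060 males 736 genes passed.

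**Figure D5:**
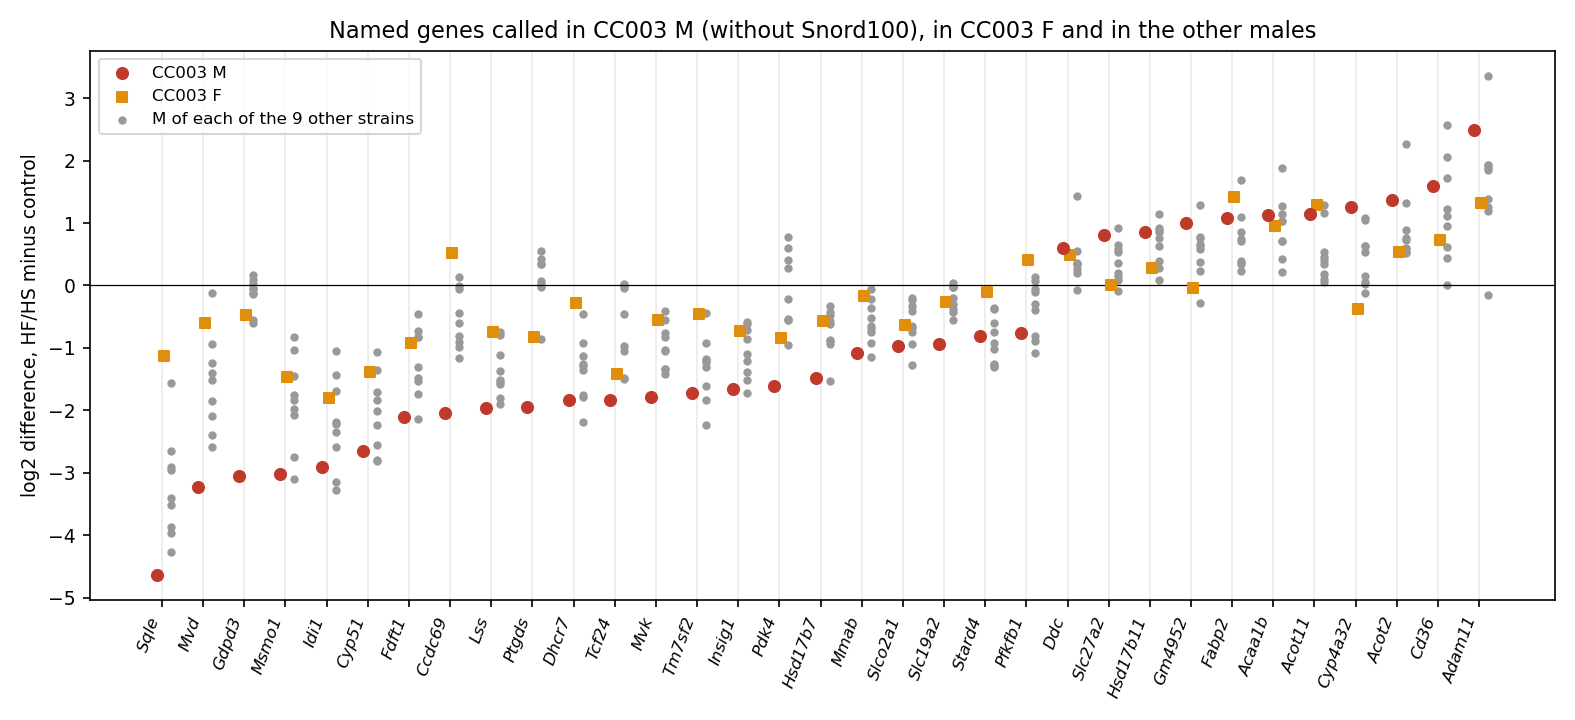
Log2 difference (HF/HS minus control) of the called genes named in the text, without Snord100, in CC003 M, in CC003 F and in the males of each of the 9 other strains, 1 point per strain. Sqle is lowest in CC003 M at −4.64, against −4.28 to −1.56 in the other male strains and −1.14 in CC003 F.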

How the data were processed

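Liver RNA was sequenced in 120 libraries. Per the labels' protocols, total RNA was extracted from flash-frozen liver with miRNeasy and 500 ng went into each library, with both a stranded total RNA kit with ribosomal RNA depletion and a stranded mRNA kit named, without saying which was used for which library. The submitters' processing notes name Cufflinks 2.2.1, Bowtie2 2.2.5.0 and TopHat2 2.1.1, with the build mm10. The authors deposited 1 table of FPKM values of 24883 rows, which were not counts, and their 75th percentile lies near 10 in every library. The rescaling formula is not given in the sources used here.

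Values were tested as log2(value + 1) with limma 3.58.1 in R 4.3.3 (linear model, moderated with a mean trend and robust prior, two-sided), on genes whose mean in the compared libraries reached 1, with Benjamini-Hochberg adjustment over all genes tested and a call at an adjusted p under 0.05. The 3 tests were HF/HS minus control in the 6 CC003 male libraries, the male minus female diet difference in the 12 CC003 libraries, and the CC003 male diet difference minus the equally weighted mean of 9 other strains in the 60 male libraries. The script was tested on simulated data. A list is described by its counts and median beside all genes tested.

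Named genes were up to 15 called genes per direction by the size of the log2 difference, filled by lowest p where fewer were called, up to 6 per gene list by p with members needed to describe a group, and up to 8 per direction for the 2 tests of differences. Rows with repeated symbols, small RNAs and genes listed at 0 were left out of the rule. The samples, gene lists and tests were chosen with earlier results of these data known. Starts in the table were 0-based and are given here 1-based in mm10. Promoter sequences are from RefSeq (GRCm38.p6). Same-numbered HF/HS and control libraries did not deviate together (r −0.12 to −0.01), so the main test had no block. Alternatives were the pseudocount, the filter on low values, genes at 0, scaling, limma's prior, the replicate block, each CC003 male library left out, and the libraries that share the spread. Some genes that were analysed and counted are not reported here by name.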

Additional observations from a re-analysis of the deposited data

Results flagged for a closer look

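The 22 differences given here are those of genes named by rule or among the called genes, and each passed a test of the difference itself by limma, with Benjamini-Hochberg adjustment over all genes. In all, 2 genes passed against CC003 females and 372 against the other males. Each difference is given on the log2 scale as the CC003 male diet difference minus that of the other group. Against the other males, strain and kind of library cannot be told apart. Groups of 3 libraries are too small to test for single libraries that stand apart.

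Against CC003 females, Sqle differed by −3.51 and Snord100 by 12.81, the second with all 3 control males listed at 0.

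Against the mean of the males of the 9 other strains, the sterol genes Fdft1 (−0.88), Hsd17b7 (−0.74), Msmo1 (−1.15) and Mvd (−1.65) had a lower diet difference in CC003. So did Mmab (−0.49), Slc19a2 (−0.73) and Tcf24 (−1.23). Single strains fell slightly further than CC003 for some of these. In CC032 Fdft1 was at −2.135 (CC003 −2.11) and Mmab at −1.139 (CC003 −1.08). In CC019 Hsd17b7 was at −1.525 (CC003 −1.475) and Msmo1 at −3.099 (CC003 −3.017). Gdpd3 (−2.91) and Ptgds (−2.05) were lower too, with HF/HS libraries listed at 0. Lower values also came from Ugt2b34 (−1.30), Cib2 (−1.42), Clcn6 (−1.17), Nup37 (−1.08), Tspan13 (−1.004) and Unc13b (−0.95). Higher values came from Tsen54 (1.01), Polr3c (0.77), Blzf1 (0.71), Ppt2 (0.34) and Mtnr1a (0.93), the melatonin receptor. Mtnr1a was at 5.34, 8.995 and 8.86 units in HF/HS livers, against 2.30, 1.94 and 2.61 units in control livers of CC003 males. Its log2 diet difference was 1.385 in CC003 males, but 1.531 in CC041 and 1.003 in CC032 males. In CC011, CC019 and CC043 males it was 0.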

How the results depend on the processing

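Of the 36 genes called between diets in CC003 males, none changed direction under any alternative run. The count was 26 to 44 under another pseudocount, filter or scaling, 53 with scaling to totals without RNAs that lack a poly(A) tail (chosen after seeing the data), 50 with the spread shared by the 12 CC003 libraries, 8 with limma's prior without a trend, 828 with the spread shared by 60 male libraries, and 16 to 51 when each library was left out. With the replicate number as a block 30 genes passed, of which 17 were among the 36. The labels give groups the same numbers, but these did not pair the libraries, so the block says little here. The male minus female count of 2 became 1 with a pseudocount of 5, where Sqle no longer passed, and 1 with genes at 0 left out, stayed at 2 with the replicate block, and ran from 1 to 5 with each library left out. The count of 372 against the other males became 964 without a filter, 148 with a filter at a mean of 5 and 736 without the CC060 males, ran from 360 to 519 with each library left out, and was 358 with the replicate block. Quantile normalization gave 515, with 304 higher (59%, against 48.1% in the main result). The cause was not tested. With 3 libraries a group and no read counts, small differences could not be resolved.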

Other observations

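Small differences that belong to no comparison above stood in a few other groups of genes. Of 22 genes of the urea cycle and amino acid metabolism, 3 were lower in every HF/HS library of the CC003 males and 1 was higher, against 7.89% lower and 8.95% higher over all genes. Got1, cytosolic aspartate aminotransferase, was at 41.8, 32.0 and 40.6 units in HF/HS livers, against 99.8, 59.99 and 67.4 units in control livers (limma, adjusted p = 0.125). Of 20 one-carbon genes 3 were lower in every HF/HS library, among them Pemt, which methylates phosphatidylethanolamine to phosphatidylcholine, at 221, 284 and 262 units in HF/HS livers, against 315, 317 and 351 units in control livers (adjusted p = 0.314), and Cbs, cystathionine synthase, at 272, 262 and 248.5 units in HF/HS livers, against 310, 303 and 351 units in control livers (adjusted p = 0.329).

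Inhbe, which encodes a secreted activin subunit made by hepatocytes, was at 57.2, 61.8 and 71.3 units in HF/HS livers, against 39.3, 36.4 and 40.7 units in control livers, and lay just outside the threshold (adjusted p = 0.0647). Igfbp1, an insulin-suppressed binding protein, was at 17.6, 6.22 and 0.972 units in HF/HS livers, against 22.7, 32.1 and 14.6 units in control livers, with overlap through HF/HS library 1. Of 24 glutathione and NRF2 genes 3 were higher (12.5%) and 2 lower (8.33%) in every HF/HS library, near the shares over all genes, and Gstm3, a glutathione transferase, was at 30.6, 61.9 and 22.9 units in HF/HS livers, against 102, 71.2 and 85.4 units in control livers (adjusted p = 0.304).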
